A study of Mus musculus with 7 samples.

Results

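Neurod1, Neurod2, Neurod6, Neurog2, Tbr1, Eomes, Bcl11b, Dlx1 and Dlx2 encode transcription factors that build the neurons of the forebrain. They were followed in RNA from brain cells labelled endothelial that had been sorted from mouse embryos. The 9 genes were taken by name, 7 of them factors of cortical excitatory neurons and 2, Dlx1 and Dlx2, factors of inhibitory neurons. All 9 had a row among the 23358 gene entries of the authors' deposited table, and all 9 were among the 13356 entries that the authors tested and that reached 1 FPKM (fragments per kilobase, a level scaled for transcript length and library size) in at least 1 group.

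The study set cells lacking Tgfbr2, the type II receptor for transforming growth factor β, against control cells, with 4 Tgfbr2-deficient and 3 control libraries. All came from C57Bl6 brains at stage E14.5, and in all of them cells that had undergone Cre recombination carried TdTomato from the Ai14 allele, the red fluorescence used to sort them. Each library was made from 2000 to 5000 cells and read as single ends of 50 bases. The sources used here do not give the Cre line or the recombined exons. They do not say either that each library is a separate embryo, so the p-values reflect library-to-library spread that may be only technical. Each gene had 1 FPKM value per group, in which the libraries were already combined, so no spread between libraries can be given beside a level and the depth is unknown.

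The labelled cell type and the labelled deletion were checked first. Of 16 endothelial markers, 15 rose in Tgfbr2-deficient cells, yet their summed level was 395 FPKM in Tgfbr2-deficient cells and 73.4 FPKM in control cells, while 16 microglia and macrophage markers summed to 5471 FPKM in Tgfbr2-deficient cells and 11989 FPKM in control cells. By these sums macrophage transcripts were above endothelial ones in both groups, which goes against the label, so the groups are called cells here and not endothelium. Tgfbr2 stood at 65.4 FPKM in Tgfbr2-deficient cells and 91.1 FPKM in control cells, and did not pass the threshold of 0.05, with q = 0.0953 in the authors' deposited table. In such a mixture fewer cells of a type and less RNA per cell cannot be told apart.

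In the embryonic cortex, excitatory neurons arise from radial glia, often through dividing intermediate progenitors. A relay of factors marks the steps: Neurog2 starts the excitatory programme in progenitors, Eomes marks intermediate progenitors, Neurod1 follows as cells leave the cycle, and Neurod2, Neurod6, Tbr1 and Bcl11b act in young neurons. Inhibitory neurons arise in the ganglionic eminences below the cortex, where Dlx1 and Dlx2 drive their differentiation and migration. None of the 9 factors is used as a marker of endothelium or of macrophages.

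All 9 factors rose in Tgfbr2-deficient cells, between 2.72-fold for Dlx2 and 4.92-fold for Neurod6. Their summed level was 118 FPKM in Tgfbr2-deficient cells and 30.5 FPKM in control cells, a 3.88-fold difference. At a q under 0.05 in the authors' deposited table, 9 of 9 were called higher, against 23.9% of all tested genes, and 0 were called lower, against 14.7% of all tested genes. At an unadjusted Cuffdiff p under 0.05 the number lower was also 0. Eomes, at 0.718 FPKM in control cells, was counted through its level in Tgfbr2-deficient cells, so it could not be called lower. Among the 6896 tested genes whose mean FPKM over both groups fell within the members' own range, 28.2% were called higher and 6.67% lower. Under other call rules the background of higher genes was 24.8% without an FPKM filter, 17.2% at a minimum of 5 FPKM, 20.3% at q under 0.01 and 20.1% with an absolute log2 fold of at least 1. The median deposited log2 fold of the 9 factors was 1.95, beside −0.09 over all tested genes.

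The smallest values in the authors' deposited table, p = 5e-05 and q = 0.00029, were shared by 8 factors, so these cannot be ranked by p. Dlx1 was the exception, with p = 0.0013 and q = 0.00518 in the authors' deposited table. The deposited test statistic, a score of the log fold, was highest for Neurod6 at 5.26 and lowest for Dlx1 at 1.98.

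**Figure D1:**
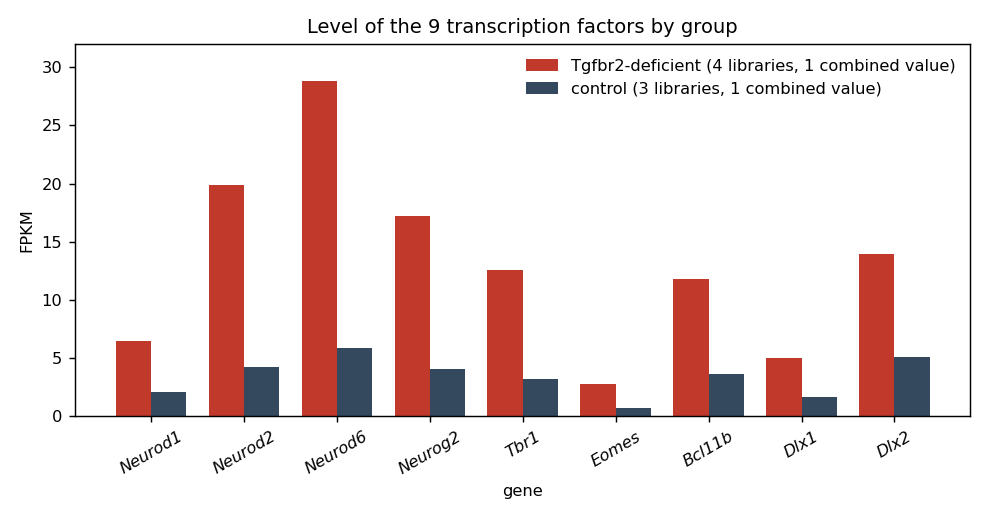
Bars give the FPKM of each factor in Tgfbr2-deficient (red) and control (dark) cells, 1 combined value per group and so without error bars. Every red bar is above its dark partner, from 28.8 against 5.86 FPKM for Neurod6 to 2.78 against 0.718 FPKM for Eomes.

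In the relay of basic helix-loop-helix factors, Neurog2 reached 17.2 FPKM in Tgfbr2-deficient cells and 4.07 FPKM in control cells, a deposited log2 fold of 2.08. Neurod1 reached 6.50 FPKM in Tgfbr2-deficient cells and 2.05 FPKM in control cells, a deposited log2 fold of 1.66. Neurod1 had the smallest fold of the 4 helix-loop-helix factors. Neurod2 reached 19.9 FPKM in Tgfbr2-deficient cells and 4.24 FPKM in control cells, a deposited log2 fold of 2.23. Neurod6 reached 28.8 FPKM in Tgfbr2-deficient cells and 5.86 FPKM in control cells, a deposited log2 fold of 2.30. Neurod6, a factor of postmitotic excitatory neurons, therefore had the highest level in each group and the largest fold of all 9. These 4 genes held 61.1% of the summed FPKM of the 9 factors in Tgfbr2-deficient cells and 53.1% in control cells.

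The stretches just before the transcription start of 3 of these genes are printed because the genes moved together and can be compared letter by letter. Each is the 250 bases upstream of the RefSeq start in GRCm38.p6, read 5′ to 3′ on the gene's own strand. Neurod2 is chr11:98329646-98329895 on the minus strand, Neurod6 chr6:55681264-55681513 on the minus strand and Neurog2 chr3:127632886-127633135 on the plus strand. Capitals mark matches to 5 motifs searched on both strands: the neurogenic E-box CAGATG, the homeodomain core TAATTA, the T-box core AGGTGTG, the box CCAAT that NF-Y binds, and the TATA box. The TATA box was searched as TATAAAA. Its variant form, of the same length with a T in place of an A, was searched as TATATAA.
Neurod2: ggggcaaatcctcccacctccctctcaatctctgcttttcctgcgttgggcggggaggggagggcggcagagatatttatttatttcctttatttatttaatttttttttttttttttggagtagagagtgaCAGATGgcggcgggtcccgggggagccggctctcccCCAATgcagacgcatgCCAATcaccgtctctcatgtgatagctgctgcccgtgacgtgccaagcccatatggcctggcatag
Neurod6: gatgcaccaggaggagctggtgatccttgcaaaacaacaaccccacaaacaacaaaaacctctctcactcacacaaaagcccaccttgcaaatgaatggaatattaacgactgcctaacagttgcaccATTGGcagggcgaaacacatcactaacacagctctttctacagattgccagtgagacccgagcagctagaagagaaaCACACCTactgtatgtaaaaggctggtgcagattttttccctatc
Neurog2: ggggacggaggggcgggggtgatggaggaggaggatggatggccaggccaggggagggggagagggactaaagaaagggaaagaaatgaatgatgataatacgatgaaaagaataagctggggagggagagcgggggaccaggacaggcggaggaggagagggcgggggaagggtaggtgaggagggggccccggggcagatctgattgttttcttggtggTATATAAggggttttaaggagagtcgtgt
Neurod2 held the E-box from base −118 to −113 and CCAAT in 2 places. Neurod6 held the T-box core from −45 to −39 and CCAAT at −122 to −118, each on the opposite strand. Neurog2 held a TATA box from −29 to −23.

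The T-box factors moved by nearly the same factor at different levels. Tbr1, which specifies early-born neurons of the deep cortex, stood at 12.6 FPKM in Tgfbr2-deficient cells and 3.20 FPKM in control cells, a deposited log2 fold of 1.97. Eomes, the factor of intermediate progenitors, stood at 2.78 FPKM in Tgfbr2-deficient cells and 0.718 FPKM in control cells, a deposited log2 fold of 1.95. The level of Tbr1 was 4.53 times that of Eomes in Tgfbr2-deficient cells and 4.46 times in control cells. Eomes had the lowest level of the 9 in each group and lay under 1 FPKM in control cells, so it was counted because of its level in Tgfbr2-deficient cells.

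Both T-box genes are shown in the same way, Tbr1 at chr2:61804203-61804452 and Eomes at chr9:118477939-118478188, each on the plus strand of GRCm38.p6, with capitals for the same 5 motifs.
Tbr1: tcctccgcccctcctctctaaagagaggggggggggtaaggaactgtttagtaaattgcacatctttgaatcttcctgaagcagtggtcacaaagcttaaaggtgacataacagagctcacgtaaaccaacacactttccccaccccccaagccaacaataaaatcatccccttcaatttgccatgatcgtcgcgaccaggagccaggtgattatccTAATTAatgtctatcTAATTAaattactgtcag
Eomes: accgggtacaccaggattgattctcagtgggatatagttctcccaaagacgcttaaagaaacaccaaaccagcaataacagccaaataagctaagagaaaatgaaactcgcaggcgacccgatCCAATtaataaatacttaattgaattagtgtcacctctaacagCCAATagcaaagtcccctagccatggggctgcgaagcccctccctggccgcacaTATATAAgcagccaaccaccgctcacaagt
Tbr1 held the homeodomain core in 2 places, from −33 to −28 and from −18 to −13. Eomes held a TATA box from −30 to −24 and CCAAT in 2 places.

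Over all 9 upstream stretches, each matched to a gene symbol in RefSeq, few motifs recurred. A TATA box was found in 3 of 9, Neurod1, Neurog2 and Eomes, and in 7.33% of 32851 mouse promoters of the same length. CCAAT was found in 4 of 9, against 33.8% of promoters. The E-box, the homeodomain core and the T-box core were each found in 1 of 9, against 14.4%, 4.84% and 5.1% of promoters. Bcl11b and Dlx1 held no match in this window. Median GC content was 52.8% for the 9 stretches and 52.4% for all promoters. The motifs were chosen after the sequences had been seen, and a match is a description of letters only.

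**Figure D2:**
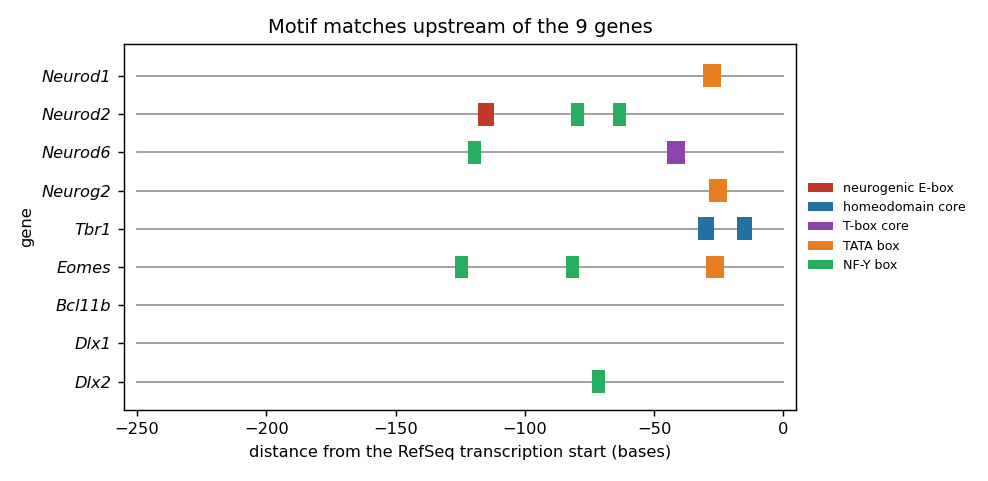
Coloured blocks mark motif matches along the 250 bases before the RefSeq start of each of the 9 genes, with distance from the start in bases on the x axis. TATA boxes of Neurod1, Neurog2 and Eomes all lie between −31 and −23, and no motif is shared by all 9 genes.

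Bcl11b, a zinc finger factor of neurons that project below the cortex and of striatal neurons, stood at 11.8 FPKM in Tgfbr2-deficient cells and 3.66 FPKM in control cells, a deposited log2 fold of 1.68. Dlx2, a homeobox factor of inhibitory progenitors, stood at 13.9 FPKM in Tgfbr2-deficient cells and 5.11 FPKM in control cells, a deposited log2 fold of 1.45. Dlx1, its neighbour and partner, stood at 4.98 FPKM in Tgfbr2-deficient cells and 1.63 FPKM in control cells, a deposited log2 fold of 1.61. By deposited fold Dlx1 and Dlx2 had the smallest values of the 9, but on log2(FPKM + 1), which pulls low genes towards 0, the smallest difference was that of Eomes at 1.14, before Dlx1 at 1.19, Dlx2 at 1.29 and Neurod1 at 1.30. The level of Dlx2 was 2.80 times that of Dlx1 in Tgfbr2-deficient cells and 3.14 times in control cells.

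The inhibitory pair rose 2.81-fold in sum and the 7 excitatory factors 4.18-fold in sum. The pair held 16.0% of the summed FPKM of the 9 factors in Tgfbr2-deficient cells and 22.1% in control cells. Dlx2 ranked 4 of 9 by level in Tgfbr2-deficient cells and 2 of 9 in control cells, where only Neurod6 was above it. Whether neighbouring ranks differ cannot be said without values per library, and the difference between the excitatory and inhibitory folds was not tested.

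Among all tested genes the factors stood in the lower and middle range in control cells and higher in Tgfbr2-deficient cells. Neurod6 was above 78.7% of tested genes in Tgfbr2-deficient cells and above 40.4% in control cells, and Eomes above 17.7% in Tgfbr2-deficient cells and above 8.75% in control cells. In the plane of both group values, the genes nearest to the median point of the 9 factors were Sox9, a factor of glial progenitors, at a distance of 0.03 in log2(FPKM + 1), Ebf1 at 0.04 and Cdo1, an enzyme of cysteine breakdown, at 0.05. Nearest to Neurod6 were Tspan6 at 0.05, the glycine transporter gene Slc6a9 at 0.10 and Nckap1, of the actin-regulating WAVE complex, at 0.16. The likeness rests on 2 group values, and 250 tested genes lay within 0.5 of the median point.

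**Figure D3:**
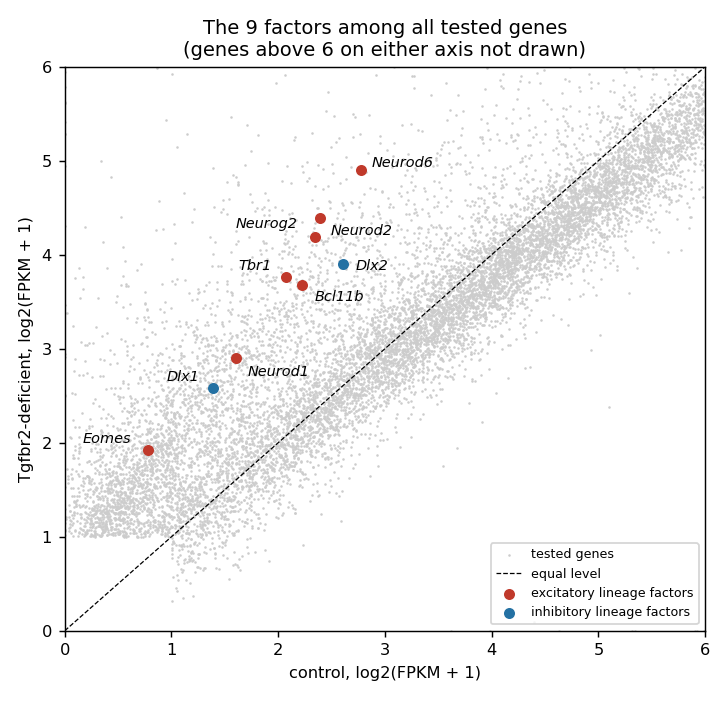
Each grey point is a tested gene, placed by log2(FPKM + 1) in control cells on the x axis and in Tgfbr2-deficient cells on the y axis, with genes above 6 left out. The 9 factors (red excitatory, blue inhibitory) all lie above the dashed line of equal level, with Neurod6 uppermost.

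The genome positions, as the deposited table gives them in mm10 and counted from 1, are chr2:79452641-79456636 for Neurod1, chr11:98325417-98329645 for Neurod2 and chr6:55677819-55681263 for Neurod6. They are chr3:127633145-127635631 for Neurog2, chr2:61804453-61814113 for Tbr1, chr9:118478189-118486132 for Eomes and chr12:107910403-108003414 for Bcl11b. Dlx1 and Dlx2 lie side by side, with spans of chr2:71529445-71537891 and chr2:71543408-71546754. The span given for Dlx1 is that of an entry shared in position with its antisense gene Dlx1as. GENCODE M21 places the Dlx1 gene itself at chr2:71528113-71533981. GENCODE M21 annotates all 9 as protein-coding. In 3 cases another annotated gene overlaps: Cerkl on the same strand and Gm26755 on the opposite strand at Neurod1, the antisense gene Gm33460 at Eomes, and the antisense gene Dlx1as at Dlx1. The kits used do not mark strand, so reads from bases shared by genes on opposite strands cannot be told apart by strand. At Eomes the shared stretch is 574 bases. Cerkl and Neurod1 share a strand, so strand would not separate them in any case. Their overlap is one of GENCODE M21 annotation, and their entries in the deposited table do not overlap. Of the entries of the 9 factors, only that of Dlx1 overlaps another there. Dlx1as, whose entry in the table spans the same bases as that of Dlx1, stood at 11.9 FPKM in Tgfbr2-deficient cells and 3.57 FPKM in control cells, above Dlx1 in each group, and the authors' deposited table gives it q = 0.00029. The value of Dlx1 is uncertain for this reason, and Dlx2 has no such overlap. Cerkl stood at 0.910 FPKM in Tgfbr2-deficient cells and 0.704 FPKM in control cells, below Neurod1 in each group.

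Counts for the lists that follow include genes that reached 1 FPKM in Tgfbr2-deficient cells alone and so were bound to be higher there: 1624 of all 13356 tested genes, and 7 of 29 further excitatory factors, 4 of 24 inhibitory factors, 6 of 26 downstream genes, 5 of 13 glutamatergic and 5 of 13 GABAergic genes. Among the lineage markers they were 1 of 14 for intermediate progenitors, 3 of 9 for Cajal-Retzius cells, 2 of 14 for radial glia and 0 of 20 for pan-neuronal markers.

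Most further factors of the excitatory lineage were also higher. Of 31 listed, 29 were tested, of which 24 rose, 2 fell and 3 did not pass, with a median deposited log2 fold of 1.61. Insm1, a factor of newborn neurons, stood at 20.0 FPKM in Tgfbr2-deficient cells and 4.86 FPKM in control cells, Zbtb18 at 24.5 FPKM in Tgfbr2-deficient cells and 6.85 FPKM in control cells, and Fezf2, which directs subcortical projection, at 7.80 FPKM in Tgfbr2-deficient cells and 1.96 FPKM in control cells. The 2 that fell were Mef2c, at 23.4 FPKM in Tgfbr2-deficient cells and 47.7 FPKM in control cells, and Etv1, at 6.67 FPKM in Tgfbr2-deficient cells and 13.0 FPKM in control cells. Mef2c is also a factor of microglia, and 14 of 16 microglia and macrophage markers fell in the same cells. The part of those cells in its fall was not tested.

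Of 28 further factors of the inhibitory lineage, 24 were tested, of which 16 rose, 2 fell and 6 did not pass, with a median deposited log2 fold of 1.34. Lhx6, of interneurons from the medial eminence, stood at 6.85 FPKM in Tgfbr2-deficient cells and 1.77 FPKM in control cells. Sp9 stood at 8.76 FPKM in Tgfbr2-deficient cells and 2.48 FPKM in control cells, and Ebf1, of striatal neurons and also of pericytes and fibroblasts, at 12.9 FPKM in Tgfbr2-deficient cells and 3.57 FPKM in control cells. Beside Etv1, the gene that fell was Maf, at 43.9 FPKM in Tgfbr2-deficient cells and 117 FPKM in control cells, a factor of interneurons and of macrophages. In the Dlx family, Dlx5 rose to 8.36 FPKM in Tgfbr2-deficient cells, against 3.06 FPKM in control cells, while Dlx6, at 1.49 FPKM in Tgfbr2-deficient cells and 0.508 FPKM in control cells, had q = 0.451 in the authors' deposited table.

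Genes listed as downstream of the 9 factors, from work in mouse cortex and eminences, were mostly higher. The list does not record whether a factor raises or lowers each gene, so it sets no expected direction. The part of the 9 factors in the levels of these genes was not tested. Of 28 listed, 26 were tested, of which 23 rose, 0 fell (0 also at an unadjusted Cuffdiff p under 0.05) and 3 did not pass, with a median deposited log2 fold of 1.61. Reln, the secreted guide of cortical layering, stood at 5.82 FPKM in Tgfbr2-deficient cells and 0.945 FPKM in control cells. Cntn2, an axonal adhesion molecule, stood at 16.6 FPKM in Tgfbr2-deficient cells and 3.87 FPKM in control cells, and the Notch ligand gene Dll1, a target of Neurog2, at 8.78 FPKM in Tgfbr2-deficient cells and 2.15 FPKM in control cells. The 3 that did not pass were Hes6, Rgs3 and Dlx6, with 47.0 FPKM in Tgfbr2-deficient cells and 44.3 FPKM in control cells for Hes6.

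Genes of both transmitter types were also mostly higher. Of 13 tested genes of glutamatergic transmission, 11 rose and 1 fell, and of 13 tested genes on the GABAergic list 13 rose. The GABAergic list also holds genes that mark inhibitory neurons without acting in GABA transmission, namely Npy, Sst, Calb1, Calb2, Erbb4 and the chemokine receptor gene Cxcr4, which endothelial and immune cells make too. Cxcr4 stood at 4.33 FPKM in Tgfbr2-deficient cells and 0.994 FPKM in control cells. Gria2, a glutamate receptor subunit, stood at 8.02 FPKM in Tgfbr2-deficient cells and 1.30 FPKM in control cells, and the vesicular transporter gene Slc17a6 at 4.32 FPKM in Tgfbr2-deficient cells and 1.33 FPKM in control cells. Gad1, which makes GABA, stood at 4.75 FPKM in Tgfbr2-deficient cells and 1.12 FPKM in control cells. The glutamatergic gene that fell was Camk2a, a synaptic kinase, at 2.86 FPKM in Tgfbr2-deficient cells and 5.43 FPKM in control cells, with q = 0.00338 in the authors' deposited table.

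Along the lineage, 9 of 14 intermediate progenitor genes rose and 1 fell, with Sstr2 at 12.1 FPKM in Tgfbr2-deficient cells and 2.70 FPKM in control cells, and Tacc3, a spindle protein of dividing cells, at 34.9 FPKM in Tgfbr2-deficient cells and 54.8 FPKM in control cells as the member that fell. Of 9 genes of Cajal-Retzius cells, the Reln-making neurons of the cortical surface, 7 rose. Of 14 radial glia markers 12 rose, among them Hes1, at 21.5 FPKM in Tgfbr2-deficient cells and 2.59 FPKM in control cells, which endothelium makes as well. Of 20 pan-neuronal markers 18 rose, with a median deposited log2 fold of 1.32, and none of these 4 lists was called lower beyond Tacc3. Stmn4, a microtubule regulator of neurons, stood at 32.7 FPKM in Tgfbr2-deficient cells and 8.31 FPKM in control cells, and Ncam1 at 35.6 FPKM in Tgfbr2-deficient cells and 11.0 FPKM in control cells. The level of Neurod6 relative to Tubb3, the neuronal tubulin gene, was 0.228 in Tgfbr2-deficient cells and 0.0877 in control cells. This ratio depends on the neuronal gene chosen. The deposited log2 fold of Tubb3 was 0.92, under the list's median, while that of Stmn4 was 1.98 and that of Neurod6 was 2.30.

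Factors of midbrain, hindbrain and spinal neurons were set beside the forebrain factors. Of 40 listed, 21 were untested or under 1 FPKM in each group. The same held for 2 of 31 on the excitatory list and 4 of 28 on the inhibitory list. Without the FPKM filter 24 of the 40 were tested and 15 were called higher. Of the 19 tested, 13 rose, 1 fell and 5 did not pass, with a median deposited log2 fold of 1.26. That median was 1.34 for the further inhibitory factors and 1.61 for the further excitatory factors. Since 7 of the 19 reached 1 FPKM in Tgfbr2-deficient cells alone, 5 of them among the 13 that rose, this count is in part set by the filter. Lmx1a, a factor of midbrain dopamine neurons and the roof plate, stood at 3.79 FPKM in Tgfbr2-deficient cells and 0.936 FPKM in control cells. Tal1, at 31.5 FPKM in Tgfbr2-deficient cells and 7.97 FPKM in control cells, and Gata3, at 6.27 FPKM in Tgfbr2-deficient cells and 2.18 FPKM in control cells, are also blood cell factors. The gene that fell was Lbx1, a factor of hindbrain and spinal association neurons, at 2.84 FPKM in Tgfbr2-deficient cells and 11.8 FPKM in control cells.

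**Figure D4:**
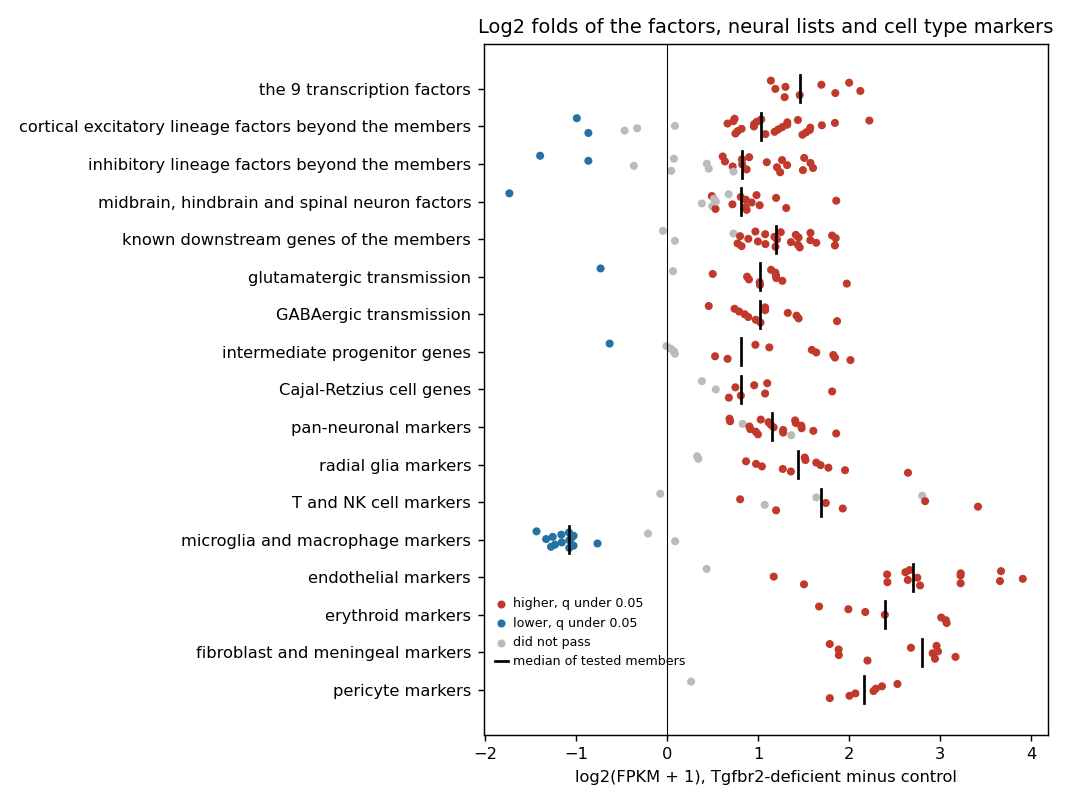
Each point is a tested gene at its difference in log2(FPKM + 1), Tgfbr2-deficient minus control, with red for higher, blue for lower and grey for genes that did not pass, and a black bar for the list's median. All 9 factors lie right of zero with a median of 1.45, as do the medians of the neural lists, while 14 of 16 microglia and macrophage markers are blue.

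Markers of many other cell types moved with the factors. Of fibroblast and meningeal markers 10 of 10 rose, of erythroid markers 7 of 7 and of pericyte markers 7 of 8, with summed levels of 1095, 2343 and 79.9 FPKM in Tgfbr2-deficient cells and 133, 356 and 13.3 FPKM in control cells. Their median deposited log2 folds were 2.94, 2.40 and 3.08, and that of the endothelial markers was 3.82, beside 1.95 for the 9 factors. The microglia and macrophage median was −1.10. Of the fibroblast, erythroid and pericyte markers 0, 1 and 4 reached 1 FPKM in Tgfbr2-deficient cells alone, and 8 of the 16 endothelial markers did. The part of these cell types in the levels of the 9 factors was not tested.

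Bcl11b and Eomes are also made by T cells and by natural killer (NK) cells, so markers of these were examined. Of 23 such markers 10 were tested, and 8 of these reached 1 FPKM in Tgfbr2-deficient cells alone, so that their direction was largely set by the filter. Of the 10, 6 rose and 0 fell. Among the 8, 5 were called higher, against 1256 of the 1624 tested genes that reached 1 FPKM in Tgfbr2-deficient cells alone. At an unadjusted Cuffdiff p under 0.05 the numbers for the 10 were 9 higher and 0 lower. No share over all tested genes was computed at that threshold, so these numbers have no background beside them. The summed level of the 23 was 59.1 FPKM in Tgfbr2-deficient cells and 10.3 FPKM in control cells. Tcf7, a T cell factor, stood at 18.2 FPKM in Tgfbr2-deficient cells and 0.806 FPKM in control cells, and Il7r, the interleukin 7 receptor gene, at 3.45 FPKM in Tgfbr2-deficient cells and 0.171 FPKM in control cells. Nkg7, a gene of cytotoxic granules, stood at 7.36 FPKM in Tgfbr2-deficient cells and 0.173 FPKM in control cells, with q = 0.0358 in the authors' deposited table. Genes that define these cells differed among themselves. Lck, a kinase of T cell receptor signalling, rose to 2.99 FPKM in Tgfbr2-deficient cells, against 0.193 FPKM in control cells. Cd3g, a subunit of the T cell receptor complex, stood at 2.41 FPKM in Tgfbr2-deficient cells and 0.0978 FPKM in control cells, with q = 0.0585 in the authors' deposited table. Gzmb, a protease of cytotoxic granules, stood at 6.43 FPKM in Tgfbr2-deficient cells and 0.0663 FPKM in control cells, with q = 0.0778 in the authors' deposited table. Cd3e, another receptor subunit, stood at 0.0354 FPKM in Tgfbr2-deficient cells and the NK cell receptor gene Ncr1 at 0.0173 FPKM in Tgfbr2-deficient cells. In control cells 4 of the 23, Cd3e, Ncr1, Gzma and Prf1, were listed at 0, and in Tgfbr2-deficient cells 0 of the 23 were. The part of lymphoid cells in the levels of Bcl11b and Eomes was not tested.

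**Figure D5:**
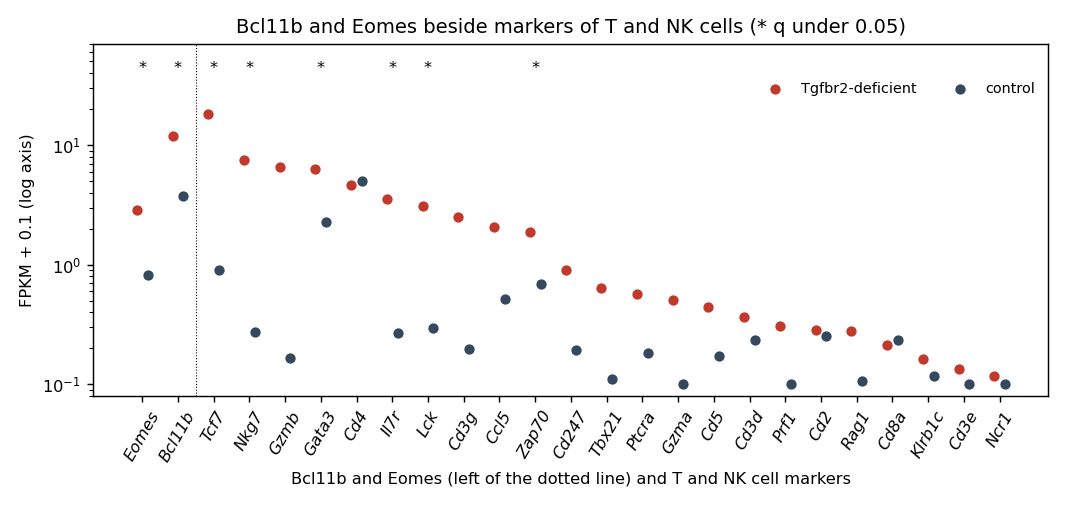
Points give FPKM plus 0.1 on a log axis for Eomes and Bcl11b and for 23 markers of T and NK cells, Tgfbr2-deficient (red) left of control (dark), with an asterisk for q under 0.05. In Tgfbr2-deficient cells the markers spread from 18.2 FPKM for Tcf7, through 2.99 for Lck and 2.41 for Cd3g, to 0.0173 for Ncr1.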

How the data were processed

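The series holds 7 libraries, 4 Tgfbr2-deficient and 3 control, grouped by the genotype in the labels, and 1 gene-level table. RNA was amplified with SMART-Seq v4 and made into libraries with Nextera XT, per the labels' protocols. Reads were processed on mm10 with TopHat2 (version 0.7 in the notes), Cufflinks 2.2.1 and Cuffdiff, per the submitters' processing notes. The sources used here name no annotation and no test options. The FPKM values are 1 per gene and group, as deposited by the authors, and no column of values per library was used (0 such columns were left aside). The log2 fold is that of Tgfbr2-deficient over control FPKM without pseudocount, as deposited. The test statistic, a score, and each p-value and q-value came from Cuffdiff and were used as deposited.

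Genes with status OK and 1 FPKM or more in at least 1 group were counted as tested (13356), and called at a deposited q under 0.05. The self-written steps ran in Python 3.11.15 with pandas 2.3.3 and were tested on simulated data. List medians use the deposited log2 fold unless log2(FPKM + 1) is stated. Of 266 symbols in 16 lists, 26 were in more than 1 list and 1, Ahsp, was not matched. The members and lists were chosen with earlier results of these data known, so no list is independent evidence. Named genes were all 9 members, up to 4 called genes with the largest log2(FPKM + 1) difference per list, up to 4 that moved against their list and the 3 genes nearest to the members' median point or to Neurod6. Not every gene the rule gives is printed, and others were named after their values were seen. Table starts were raised by 1, because 6603 of 21619 then equalled the GENCODE M21 gene start, against 701 as written. Promoters are from RefSeq, GRCm38.p6, matched by symbol for all 9 genes. For 8 of 9 the RefSeq start equalled the 5′ end, on the gene's own strand, of the table's locus. Alternatives were other FPKM filters, q thresholds, a fold minimum, recomputed q-values, other pseudocounts and centring.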

Additional observations from a re-analysis of the deposited data

How the results depend on the processing

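All 9 factors were called higher without an FPKM filter, at q under 0.01, with an absolute log2 fold of at least 1 and with q-values recomputed over the tested genes. At a minimum of 5 FPKM, 7 of 7 were called higher, since Eomes and Dlx1 stayed under it. Of the 7, only Neurod6 at 5.86 FPKM and Dlx2 at 5.11 FPKM also reached this minimum in control cells. The others passed through Tgfbr2-deficient cells alone, so their direction was set by this filter. None was called lower in any of these settings. The median log2(FPKM + 1) fold of 1.45 became 1.82 with 0.1 FPKM added in place of 1, 1.95 with no pseudocount, and 1.99 when folds were centred on 80 ribosomal protein genes, which adds 0.54 to every log2 fold. Over the 9 factors, these 3 settings and centring on all tested genes, which adds 0.08, the 36 log2 folds lay between 1.22 and 2.66. Their sign could not change, because a pseudocount does not alter which group is higher and both centrings raise the folds. These settings therefore show the range of the folds only, and do not check their direction. Of 160 list counts under other settings, 148 were unchanged or stayed within 1.5 times. Many of these were counts of 0 that stayed at 0, so the share says little about the other counts. At a minimum of 5 FPKM fewer genes were tested, and 17.2% of all tested genes were called higher. The numbers called higher were 12 of 17 tested for the further excitatory factors and 9 of 16 for the inhibitory factors. They were 4 of 6 for the midbrain, hindbrain and spinal factors and 14 of 16 for downstream genes. For glutamatergic genes they were 2 of 4 and for GABAergic genes 3 of 3. For Cajal-Retzius genes they were 1 of 2 and for T and NK cell markers 3 of 4. These counts include genes that reached 5 FPKM in Tgfbr2-deficient cells alone. With the fold minimum the number called lower was 1 for the further excitatory factors, 1 for the inhibitory factors, 0 for glutamatergic genes and 0 for intermediate progenitor genes. No paired analysis was possible because the table holds 1 value per group, and for the same reason no library could be left out. Depth is unknown, so it cannot be said how far it limits the low values of Eomes and Dlx1.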
